A study of Bos taurus with 10 samples.

Results

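Cathepsins are the proteases of the lysosome, and 9 of their genes, represented by 25 probes, were examined in bovine embryos among 25325 gene names and 43653 probes on the array. Every non-control probe that the array design names CTSA, CTSB, CTSC, CTSD, CTSH, CTSK, CTSL2, CTSS or CTSZ was taken, whatever its signal. The embryos were collected by uterine flushing 7 days after first insemination of superovulated cows, and each of 10 RNA samples had its own 1-colour array. The cows of the vehicle group had received DMSO (n = 2), and those of the other groups had received senktide, which activates the neurokinin-3 receptor, for 2 h at 30 nmol/min (n = 4) or 300 nmol/min (n = 4). All cows had been superovulated and were inseminated at 108 and 120 h, with the infusion starting at 48 h of the superovulation. The labels do not say which breed or age the cows had, how many embryos made a sample or whether each sample had its own donor cow. The p-values therefore cover the spread among these arrays alone, part of which may be technical. The study asked how the infusion bears on the quality and stage of the embryos.

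Cathepsins are made as inactive precursors, carried to the lysosome by mannose 6-phosphate receptors and activated there at acid pH. Most are cysteine proteases of the papain family, while cathepsin D is an aspartic protease and cathepsin A a serine carboxypeptidase. Cystatins hold the cysteine cathepsins in check outside the lysosome. In ruminants, cathepsins and their inhibitors are known from the endometrium and the trophoblast around implantation, and high cathepsin B activity has been linked to poor quality of bovine oocytes and embryos.

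The arrays gave enough signal to follow 6 of the 9 genes. The Feature Extraction software flags a probe as well above background where its spot clearly exceeds the local background. Of the 25 cathepsin probes, 9 were flagged so on all 10 arrays, 2 on 9 arrays, 1 on 2 arrays, 1 on 1 array and 12 on none. The 9 probes flagged on every array stood for CTSA, CTSB, CTSD, CTSH, CTSL2 and CTSZ. Over the whole array, 5.71% of the probes were well above background on all 10 arrays and 74.4% on none. A level is given below on the log2 scale relative to the array's own 75th percentile over the 2491 probes well above background everywhere, so that 0 is the level of that percentile.

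Detection went with the place of the probe along the transcript, and the sequences of a few probes show where the measured stretches lie. Positions count bases from the transcript's 5′ end as the design gives them, and genome positions are those of the design's build, Btau_3.1. Only CTSL2, a cysteine endopeptidase of the cathepsin L group that the RefSeq table now names CTSV, was read along its length. Of its 5 probes, the 2 nearest the 5′ end (starts 419 and 529) were well above background on 9 arrays and the other 3 (starts 960, 1111 and 1195) on all 10. The capitals in the probe at 960 mark the codons for asparagine, serine and tryptophan that carry the catalytic asparagine of papain-family proteases, a string found in 13 of all 43653 probes. The probe at 529 lies at chr8:85318523-85318579 on the plus strand, and the files give no genome position for the other two shown.
CTSL2 419: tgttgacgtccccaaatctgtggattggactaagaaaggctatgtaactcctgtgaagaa
CTSL2 529: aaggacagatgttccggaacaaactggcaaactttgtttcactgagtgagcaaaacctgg
CTSL2 960: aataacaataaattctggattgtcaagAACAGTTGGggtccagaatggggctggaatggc

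In the other genes the signal came from the far 3′ end. CTSB and CTSD each had a probe in the middle of the transcript that was well above background on 0 of 10 arrays, shown here whole, at chr8:7465033-7465092 and chr29:51573766-51573825, both on the plus strand.
CTSB 948: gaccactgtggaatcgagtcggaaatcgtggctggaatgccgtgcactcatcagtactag
CTSD 839: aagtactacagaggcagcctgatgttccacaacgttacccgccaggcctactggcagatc

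Each of these genes also had a probe at its 3′ end that rose well above background throughout, and the stretch around its AATAAA, the signal for cleavage and polyadenylation, is shown in capitals below together with that of CTSZ. These probes lie at chr8:7465875-7465934 (CTSB), chr29:51575333-51575391 (CTSD) and chr13:58107097-58107156 (CTSZ), all on the plus strand. The letters AATAAA, searched on the printed strand only, were present in 9.35% of all probes and in 4 of the 25 cathepsin probes, the fourth being the CTSL2 probe at 960, where they lie upstream of the asparagine codon. Of all probes with these letters 40.7% rose well above background on 2 or more arrays, against 18.4% of those without.
CTSB 1785: aggaatggctgccAATAAAaagcctctcct
CTSD 1917: agttggcacgaaAATAAAgttgttcaggcc
CTSZ 1351: gcccaagtgatgAATAAAatgcacacttca

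**Figure D1:**
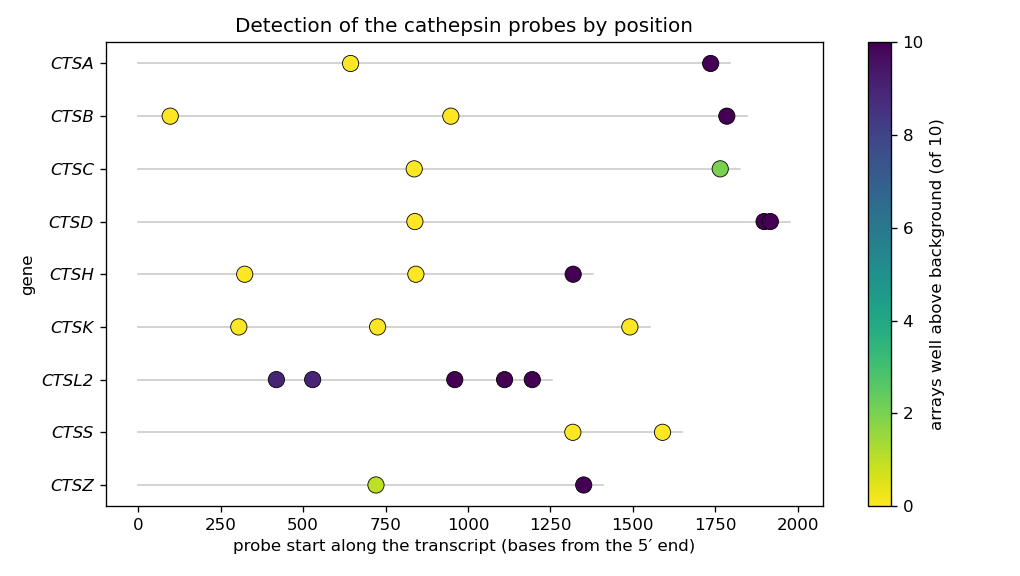
Position of the 25 cathepsin probes along their transcripts (x, start in bases from the 5′ end) by gene (y), coloured by the number of arrays, of 10, on which the probe was well above background; the grey line ends where the last probe ends. Dark points sit at the right end of CTSA, CTSB, CTSD, CTSH and CTSZ and all along CTSL2, while CTSK and CTSS have 0 at every position.

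Of the 9 probes nearest the 3′ end of their gene, 6 reached this on 9 or 10 arrays, and of the 16 probes further 5′, 5 did, namely 4 of CTSL2 and the CTSD probe at 1898. That CTSD probe shares 41 of its 60 bases with the one at 1917, so the pair is nearly 1 measurement. The array as a whole showed the same kind of gradient at a lower level. Among the 9627 transcripts with several probes, 14.2% of the probes nearest the 3′ end and 6.18% of those further 5′ reached 9 arrays. A probe below background in mid-transcript is therefore not read here as a gene without transcript. Where all probes of a gene were silent, its transcript was not detectable at this signal, which is not the same as absent.

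CTSL2 had 362 and 671 units of processed signal in the vehicle samples at its probe at 1111. With 30 nmol/min it had 733, 502, 1783 and 1934 units, and with 300 nmol/min 982, 634, 1997 and 2429 units. The highest 4 values all belong to the third slide, which held replicates 3 and 4 of both senktide groups and no vehicle array. On slides 1 and 2, all groups were present with 1 array each. The same slide gave the highest signals for each of the 6 genes, at 2.35 (CTSZ) to 3.84 (CTSA) times the mean of the other slides, and the array's scale value ran from 79.4 units in vehicle replicate 1 to 481.5 units in replicate 4 at 300 nmol/min. Unscaled signal therefore followed the slide, and groups were compared after scaling. Scaling did not remove all differences between slides. The mean scaled level was −1.80 on the third slide and −1.51 on the others for CTSB, and −2.56 and −2.12 for CTSZ. It was −0.63 and −0.86 for CTSA, while the means of CTSD, CTSH and CTSL2 lay closer together. The main fit has no slide term, so its comparisons with vehicle also hold differences between slides.

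After scaling, CTSL2 was the steadiest of the cathepsins. Its level was 2.19 and 2.44 in the vehicle samples. With 30 nmol/min it was 2.04, 2.33, 2.15 and 2.25, and the samples given 300 nmol/min had 2.45, 2.20, 2.24 and 2.33. The 3 groups overlapped, and the SD over the 10 arrays was 0.13, smaller than that of all but 6.50% of the 2491 probes detected everywhere, whose median SD was 0.24. At 300 nmol/min against vehicle it differed by −0.01 (SE 0.19, 95% confidence interval −0.42 to 0.41, limma adjusted p = 0.991). It differed by −0.12 at 30 nmol/min against vehicle (interval −0.54 to 0.30, adjusted p = 0.808), and between 300 and 30 nmol/min by 0.11 (interval −0.23 to 0.45, adjusted p = 0.999).

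The other 4 CTSL2 probes gave differences of −0.10 to 0.01 at 300 nmol/min against vehicle and of −0.21 to −0.11 at 30 nmol/min against vehicle, none past an adjusted p of 0.05. The probes nearest the 5′ end were more variable, with SDs over the 10 arrays of 0.53 (start 419) and 0.51 (start 529). Within an array, the probe at 419 stood below the probe at 1111 by a log2 amount that depends on both probes' binding, so only its variation between arrays can be read. This log2 difference was −5.23 and −4.23 in vehicle, −5.16 to −4.51 at 30 nmol/min and −5.33 to −4.10 at 300 nmol/min. The value of −5.23 belongs to vehicle replicate 1, where the probe at 419 was not well above background, so that only 1 vehicle value is a measured one. It lay within the range of the 300 nmol/min group. The labels record that RNA quality was measured but give no value for any sample, and the part of RNA length in this variation was not tested.

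**Figure D2:**
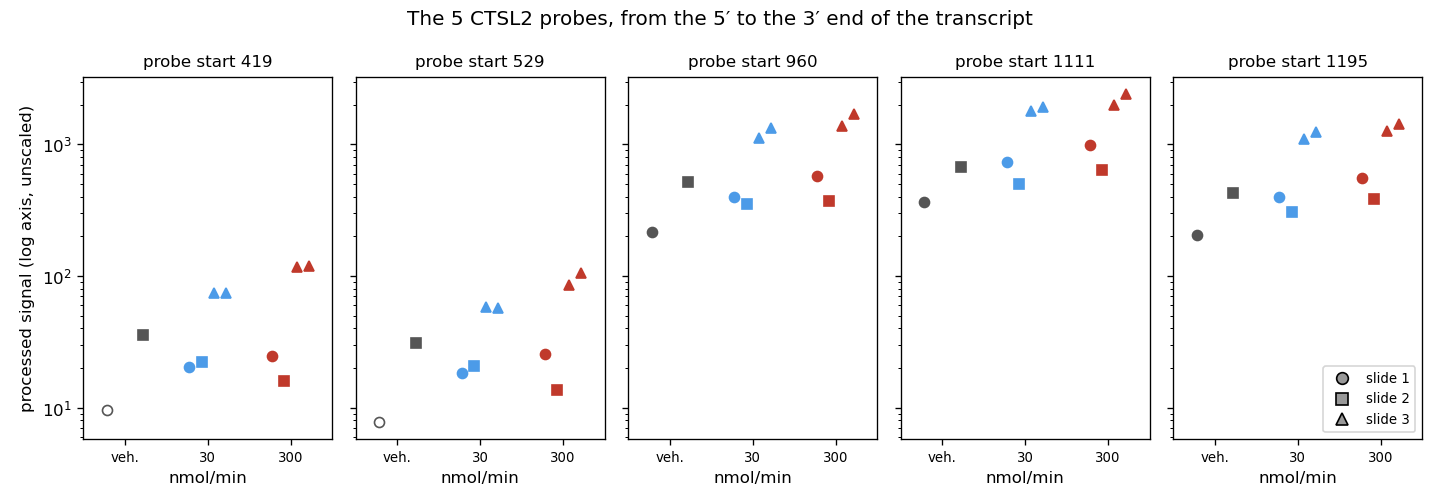
Processed signal of the 5 CTSL2 probes before scaling (y, log axis, arbitrary units) in vehicle, 30 and 300 nmol/min senktide arrays (x), 1 panel a probe with its start along the transcript; the shape gives the slide and an open symbol an array not well above background. The triangles of slide 3 are highest in every panel, and vehicle replicate 1 is the lowest, at 9.62 units for the probe at 419 and 362 units for the probe at 1111.

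CTSB, a cysteine protease that trims dipeptides from the carboxyl end of proteins and also cuts inside them, had levels of −1.65 and −1.37 in vehicle at its probe at 1785. It had −1.63, −1.46, −1.72 and −1.60 at 30 nmol/min, and the samples given 300 nmol/min had −1.35, −1.57, −1.85 and −2.04. Replicates 3 and 4 at 300 nmol/min were the lowest and replicate 1 of that group the highest of all, so the groups overlapped. The mean was −1.71 ± 0.31 at 300 nmol/min (SD, n = 4), against −1.51 ± 0.20 in vehicle (SD, n = 2). The difference of −0.20 (SE 0.23, interval −0.71 to 0.32, limma adjusted p = 0.694) was within the spread of the samples, and it was 0.29 within slide 1 and −0.20 within slide 2.

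CTSH, a cysteine protease that removes amino acids from the amino end of proteins, was measured by its probe at 1319. At that probe, on the minus strand of chromosome 21 (24945867 to 24945926), its levels were −1.24 and −1.53 in vehicle. They were −1.49, −1.39, −1.46 and −1.65 at 30 nmol/min, and the samples given 300 nmol/min had −1.68, −1.95, −1.47 and −1.68. Replicates 1, 2 and 4 at 300 nmol/min lay below both vehicle samples, and replicate 3 lay between them. The level at 300 nmol/min was 0.81 times that of vehicle (log2 difference −0.31, SE 0.20, interval −0.76 to 0.14, limma adjusted p = 0.477), which did not pass the test. Within slides 1 and 2 the differences were −0.44 and −0.42. At 30 nmol/min against vehicle the difference was −0.11 (adjusted p = 0.849).

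CTSZ, a carboxypeptidase also called cathepsin X, varied most. Its probe at 1351 had levels of −2.40 and −2.22 in vehicle, of −2.15, −1.56, −2.28 and −2.86 at 30 nmol/min and of −2.0, −2.40, −2.46 and −2.63 at 300 nmol/min. Its range at 30 nmol/min took in all other samples, and its SD over the 10 arrays, 0.36, exceeded that of 85.2% of the probes well above background everywhere. The difference was −0.06 at 300 nmol/min (SE 0.33, interval −0.81 to 0.68, limma adjusted p = 0.942) and 0.10 at 30 nmol/min (interval −0.65 to 0.84, adjusted p = 0.919), both against vehicle. The difference at 30 nmol/min was 0.24 within slide 1 and 0.66 within slide 2, and 0.36 with the replicate block (adjusted p = 0.687) or the slide as a block (adjusted p = 0.649), while without replicate 2 at 30 nmol/min it was −0.12. The difference at 300 nmol/min was 0.40 within slide 1 and −0.18 within slide 2, and 0.20 with either block. The second CTSZ probe, at 721, was well above background only in vehicle replicate 1 and was not tested. Its processed signal was 18.5 and 20.8 units in vehicle, 9.68, 12.3, 4.39 and 2.89 units at 30 nmol/min, and the samples given 300 nmol/min had 9.26, 5.92, 2.72 and 2.67 units. These signals are unscaled and lie at background on 9 arrays, so no comparison between groups is drawn from them.

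CTSD, the lysosome's main aspartic protease, was nearly level. The probe at 1898 had −0.15 and −0.32 in vehicle, −0.18, −0.24, −0.15 and −0.36 at 30 nmol/min. The samples given 300 nmol/min had −0.07, −0.27, 0.06 and −0.55. The highest and the lowest value both came from the 300 nmol/min group, and the third slide held both. The difference was 0.03 at 300 nmol/min (SE 0.21, interval −0.45 to 0.50, limma adjusted p = 0.964) and 0.00 at 30 nmol/min (interval −0.47 to 0.48, adjusted p = 0.994). The overlapping probe at 1917 gave −0.12 and −0.10 for these comparisons (adjusted p = 0.778 and 0.862), so the sign depends on the probe.

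CTSA, a serine carboxypeptidase that also protects beta-galactosidase and neuraminidase in the lysosome, had levels of −0.99 and −0.73 in vehicle at its probe at 1736. It had −0.93, −0.68, −0.79 and −0.96 at 30 nmol/min, and the samples given 300 nmol/min had −0.84, −0.99, −0.23 and −0.55. Replicates 3 and 4 at 300 nmol/min were the highest of all samples, while replicates 1 and 2 fell within the vehicle range or at its edge. The level at 300 nmol/min was 1.15 times that of vehicle (log2 difference 0.21, SE 0.24, interval −0.33 to 0.75, limma adjusted p = 0.693). The difference was 0.15 within slide 1 and −0.26 within slide 2, and the samples that raise the mean are those on the slide without a vehicle array.

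**Figure D3:**
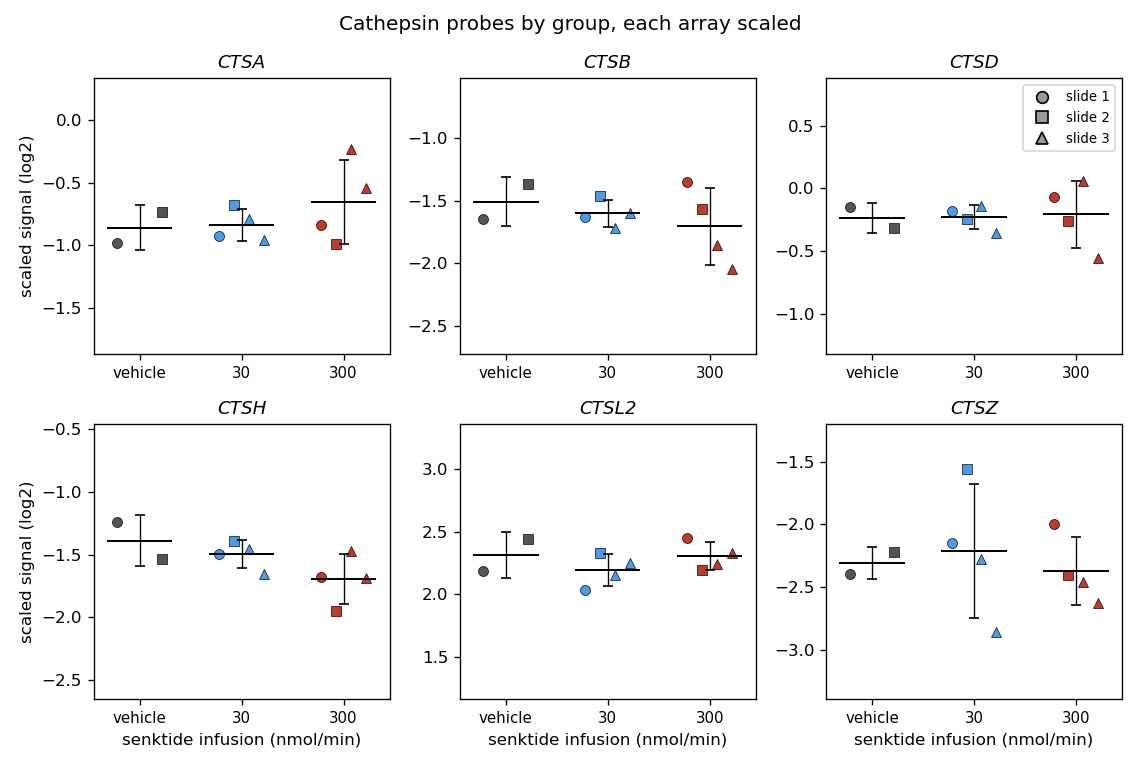
Scaled level (y, log2 relative to the array's 75th percentile over detected probes; each panel spans the same range) of 1 probe for each of 6 cathepsins in vehicle, 30 and 300 nmol/min senktide samples (x); points are arrays, shapes slides, bars the group mean and whiskers the SD (n = 2, 4 and 4). The groups overlap in all 6 panels, and CTSL2 is the tightest with an SD of 0.13 over the 10 arrays.

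CTSC, a dipeptidyl peptidase that activates the serine proteases of leukocyte granules, was at the edge of detection. Its probe at 1765 was well above background in replicate 4 at 30 nmol/min and replicate 3 at 300 nmol/min, both on the third slide, with 10.3 units each. Its signals were 3.15 and 4.55 units in vehicle, 2.54 to 10.3 units at 30 nmol/min and 2.21 to 10.3 units at 300 nmol/min. It did not rise well above background in vehicle, so no fold is given for either dose. It was the only one of the 12 tested cathepsin probes with an unadjusted p under 0.05 at 300 nmol/min against vehicle (limma adjusted p = 0.280). Its mean scaled level was −5.53 at 300 nmol/min and −4.71 in vehicle. Except on 1 array at 300 nmol/min, these levels are background signals. They were divided by scale values of 79.4 and 123.4 units in vehicle and 138.2 to 481.5 units at 300 nmol/min, so no direction is read from them. Of all tested probes, 13.8% passed that unadjusted threshold.

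CTSK, the collagen-degrading cathepsin of osteoclasts, and CTSS, which processes the invariant chain of MHC class II in antigen-presenting cells, were well above background on 0 arrays at all of their probes. The 3 CTSK probes, at 305, 726 and 1491, had medians of 2.90, 2.90 and 3.29 units. The CTSS probes at 1318 and 1590 had medians of 3.48 and 5.67 units, with a highest signal of 15.2 units. The probe nearest the 3′ end was silent in both genes, in contrast to the 6 genes above.

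No cathepsin passed the test between any pair of groups. Of the 6 genes well above background on all arrays, 0 passed an adjusted p of 0.05 in limma at 300 nmol/min against vehicle, where 0.0112% of all 8938 tested probes did (1 probe). That background of 1 probe was 32 without vehicle replicate 1, 50 without vehicle replicate 2 and 142 with quantile normalization, and the cathepsins passed in none of these. At 30 nmol/min against vehicle, and at 300 against 30 nmol/min, 0 of 6 passed, as did 0% of all tested probes. At an unadjusted p under 0.05 the count was also 0 of 6 in each comparison, against 13.8%, 11.3% and 3% of the tested probes. None of the 6 had groups that did not overlap at 300 nmol/min against vehicle, where 9.25% of tested probes lay wholly higher and 16.3% wholly lower. Such shares were 7.63% and 11.9% at 30 nmol/min against vehicle, and 1.56% and 1.14% at 300 against 30 nmol/min.

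All 18 confidence intervals lay within a 2-fold change in either direction, the widest bounds being 0.57-fold and 1.79-fold, both for CTSZ. This did not hold in every setting. It failed for 18 of 18 intervals with the 75th percentile of all probes and in the authors' deposited matrix, which is scaled that way, for 9 without the filter on dim probes, for 4 on slides 1 and 2 alone, and for 1 each, that of CTSZ at 30 nmol/min against vehicle, with quantile normalization, the slide block and the replicate block. It also failed for 3 without vehicle replicate 1 and for 4 without vehicle replicate 2. The median difference of the 6 genes was −0.04 in each of the 3 comparisons, beside −0.11, −0.11 and −0.01 for all tested probes. For the 2491 probes well above background everywhere, as these 6 are, it was −0.06, −0.06 and −0.0012. Of the 6 genes, 2, 3 and 3 lay above 0 at 300 nmol/min against vehicle, at 30 nmol/min against vehicle and at 300 against 30 nmol/min, as did 42.9%, 41.8% and 49.8% of the 2491 probes well above background everywhere. With only 2 vehicle arrays, the number of arrays limits the precision, and a difference within these intervals cannot be shown either way. In such bulk RNA, fewer cells of a type and less RNA per cell cannot be told apart. Both comparisons with vehicle share the same vehicle samples.

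**Figure D4:**
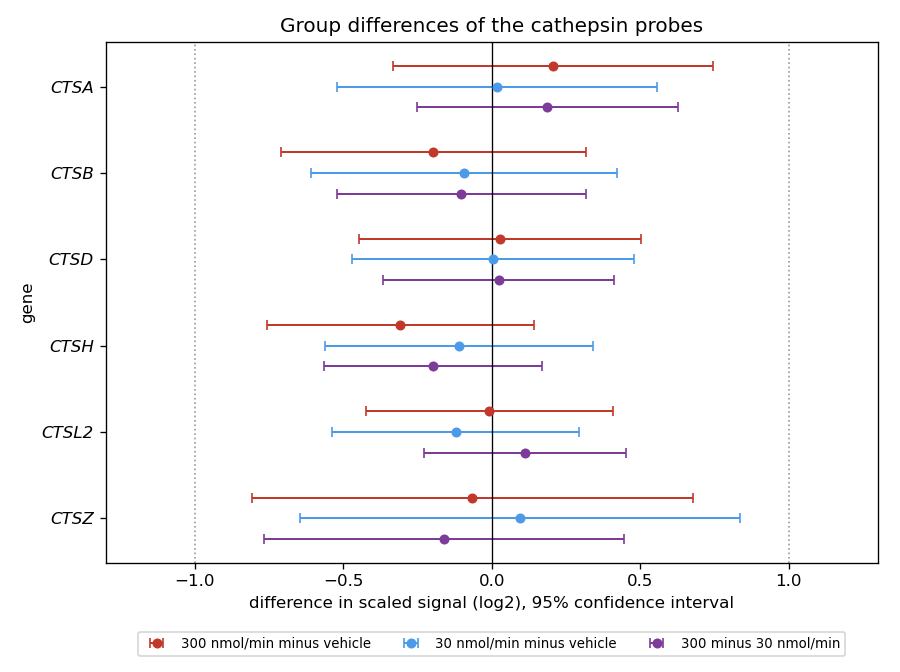
Difference in scaled level (x, log2) with its 95% confidence interval for 6 cathepsins (y) at 300 nmol/min minus vehicle, 30 nmol/min minus vehicle and 300 minus 30 nmol/min; dotted lines mark a 2-fold change. Every interval includes 0 and, at the scaling shown, stays inside the dotted lines.

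The sign of these differences depended on the scaling. When each array was set to its 75th percentile over all probes, most of which were not above background, the median of all tested probes moved to 1.06 at 300 nmol/min and 0.95 at 30 nmol/min against vehicle. The 6 cathepsins then stood at 0.86 (CTSH) to 1.38 (CTSA) and at 0.94 (CTSL2) to 1.15 (CTSZ), that is from −0.20 to 0.32 and from −0.01 to 0.21 relative to that median. Their adjusted p-values were 0.327 to 0.442, so none passed.

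The partners of the cathepsins were read from lists of lysosomal genes, and 0 genes of any list passed an adjusted p of 0.05 in any comparison. Of 8 further cathepsins and related proteases on the array, 3 were tested. CTSL, on a probe that the design names CTSL1 and that shares at most 10 bases in a row with any CTSL2 probe, differed by −0.26 between 300 and 30 nmol/min (adjusted p = 0.999). CTSF, a cysteine cathepsin, differed by −0.21 at 300 nmol/min and −0.17 at 30 nmol/min against vehicle (limma adjusted p = 0.760 and 0.847). It was well above background in only 1 of 2 vehicle samples, so both differences include a background signal. Of 11 protease inhibitors 3 were tested. CSTB, the intracellular cystatin B, differed by 0.29 at 300 nmol/min against vehicle (adjusted p = 0.672). CST3, the secreted cystatin C, differed by −0.35 at 30 nmol/min against vehicle (adjusted p = 0.574) and by 0.29 between 300 and 30 nmol/min (adjusted p = 0.999).

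Several partners were above background in senktide samples but in neither vehicle sample, so no fold is given for them. They entered the test only through the senktide arrays on which they were high, so their higher values there follow in part from the filter and support nothing about the lists. ATP6AP1, an accessory subunit of the proton pump that acidifies the lysosome, was well above background in 0 of 2 vehicle samples, 3 of 4 at 30 nmol/min and 4 of 4 at 300 nmol/min. Against vehicle its limma adjusted p was 0.134 at 300 nmol/min and 0.185 at 30 nmol/min. SCARB2, the receptor that sorts glucocerebrosidase to the lysosome, was so in 0 of 2, 2 of 4 and 3 of 4 of these samples. Its limma adjusted p against vehicle was 0.172 at 300 nmol/min and 0.288 at 30 nmol/min. CD63, a lysosomal membrane tetraspanin, was so in 4 of 4 samples at 300 nmol/min and 0 of 2 in vehicle (limma adjusted p = 0.354). These groups did not overlap, as with 9.25% (300 nmol/min) and 7.63% (30 nmol/min) of all tested probes that lay wholly higher than vehicle, and none passed the test. The scale values of the vehicle arrays, 79.4 and 123.4 units, were among the 3 lowest of the series.

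Of the sorting genes 10 of 14 were tested, of the hydrolases and activators 17 of 33, of the membrane genes 8 of 15, of the proton pump 14 of 16 and of the regulators 11 of 15. At an unadjusted p under 0.05 against vehicle, 2, 1, 2, 2 and 1 of these genes were higher at 300 nmol/min and 1 hydrolase was lower, where 5.88% of all tested probes were higher and 7.94% lower. With 30 nmol/min, 2, 0, 0, 3 and 1 were higher and 1 hydrolase and 1 regulator were lower, where 4.93% of all tested probes were higher and 6.32% lower. Between the doses the count was 0 in each list. The hydrolase counted as lower at both doses was the acid ceramidase ASAH1. It was well above background in 1 of 4 samples at either dose and in 0 of 2 vehicle samples. No fold is given (limma adjusted p = 0.238 at 300 nmol/min and 0.408 at 30 nmol/min). Its levels are mostly background signals divided by scale values that were low in vehicle, as with CTSC, so no direction is read from them. LAMTOR5 is a subunit of the complex that recruits mTORC1 to the lysosome. It was well above background in 0 of 2 vehicle samples, 3 of 4 at 30 nmol/min and 4 of 4 at 300 nmol/min. No fold is given for LAMTOR5 either (limma adjusted p against vehicle 0.226 at 300 nmol/min and 0.363 at 30 nmol/min). LAMP1, a main glycoprotein of the lysosomal membrane, differed by 0.55 at 30 nmol/min against vehicle (limma adjusted p = 0.491). It was well above background in only 1 of 2 vehicle samples, so this difference includes a background signal.

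Between 300 and 30 nmol/min the gene with the smallest p of each list also stayed short of the threshold, with an adjusted p of 0.999. The difference was 0.69 for CLN8, which helps lysosomal enzymes leave the endoplasmic reticulum, and −0.25 for SMPD1, the acid sphingomyelinase. It was 0.36 for LAPTM4A, a lysosomal membrane protein, −0.33 for ATP6V0E1, a proton pump subunit, and 0.56 for RRAGC, a GTPase that carries amino acid signals to mTORC1. At 30 nmol/min, CLN8 and RRAGC were well above background in only 2 of 4 samples and LAPTM4A in 3 of 4. At 300 nmol/min each was so in 4 of 4. The differences of these genes therefore include background signals.

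The markers of day 7 embryos were present. Of 8 trophectoderm markers 6 rose well above background on 2 or more arrays, KRT8, KRT18, KRT19, GATA2, GATA3 and TFAP2C on all 10, while CDX2 was on none. Of 3 inner cell mass markers SOX2 was on all 10 arrays, POU5F1 on 4 and NANOG on none. Several cathepsins, CTSS above all, are abundant in leukocytes. Of 16 leukocyte markers 4 reached that on 2 or more arrays and 10 on none, among them CD14, CD68, CD74 and LAPTM5. LYZ was on all 10 arrays, PTPRC on 5, ITGB2 on 4 and AIF1 on 2. The last 3 were on 0 vehicle arrays. The summed linear level of the list, background signals included, was 1.04 and 1.28 in vehicle, 0.43 to 1.47 at 30 nmol/min and 0.51 to 0.96 at 300 nmol/min.

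Of 7 markers of uterine or oviduct epithelium on the array, EPCAM rose well above background on all 10 arrays and CLU on 7, with 0 of 2 in vehicle, while OVGP1, PAEP, PGR and ESR1 were on none. Of 6 stroma markers COL1A2 was on 3 arrays and DCN on 2, again on 0 in vehicle. Of 7 cumulus or granulosa markers 0 reached 2 arrays. Given the shares of all probes well above background stated above, no difference between groups is read from these counts either. The labels' extraction text speaks of endometrium where the titles and tissue fields name embryos. The part of other cells in the cathepsin signals was not tested.

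Likeness between probes over the 10 arrays was taken as the root mean square difference between 2 probes' levels after each was centred on its own mean, over probes well above background on all 10 arrays. Between pairs of the 6 cathepsins it ran from 0.19 (CTSB and CTSL2) to 0.40 (CTSA and CTSZ). The median over all probes searched was 0.25 for CTSL2 to 0.39 for CTSZ, so that some pairs of cathepsins were closer than this and others were not. The 3 most alike of 2164 to 2166 other named probes, a search that is bound to find small values, were RPL4 at 0.08, HNRNPA0 and IGF2BP1 for CTSA, ATXN7L3B at 0.09, TMSB10 and COPS4 for CTSB, and 2 probes of FTH1, the closer at 0.10, and PLAC8A for CTSD. For CTSH they were ABCC8 at 0.06, RPL15 and SPATA2L, and for CTSL2 KDM1A at 0.08, RAE1 and H3-5. For CTSZ they were MRPL52 at 0.20, ASRGL1 and CACYBP. All these values share the same arrays and the same scaling, and a small value is more easily reached by steady probes.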

How the data were processed

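Cy3-labelled total RNA of 10 bovine embryo samples was measured on Agilent 1-colour arrays, per the labels. The deposited scanner files hold intensity per spot from Feature Extraction, whose version is 11.5.1.1 in the headers and 10.5.1.1 per the submitters' processing notes. This processed signal is background-subtracted within the array and was not scaled between arrays, per the file headers. The flags used for spots well above background and for outliers are codes of 0 or 1, per the file headers. The deposited series matrix holds log2 values. Centred on each probe and then on each array, they equalled log2 of the processed signal within 0.01 for at least 99.96% of values. That check cannot show which constant was subtracted from each array. The cathepsin differences nearly equalled those with the 75th percentile of all probes, as with 1.378 and 1.379 for CTSA at 300 nmol/min against vehicle. The medians of the matrix columns were 0.22 and 0.12 for vehicle arrays. They were 0.045, 0.066, −0.13 and −0.31 for 30 nmol/min arrays, and 0.16, −0.18, −0.28 and −0.23 for those of 300 nmol/min.

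Outlier spots were dropped, spots of 1 probe averaged on the log2 scale, and each array's 75th percentile subtracted, taken over the 2491 probes that were well above background on every array. The 8938 probes well above background on at least 2 arrays were tested with lmFit and eBayes of limma 3.58.1 in R 4.3.3, 1 coefficient per group, with Benjamini-Hochberg adjustment over all of them at 0.05. No probe spot was saturated. The share of probes well above background was 7.17% and 9.44% in vehicle, 8.77% to 19.6% at 30 nmol/min and 10.5% to 19.6% at 300 nmol/min. A gene stands for its tested probe with the highest mean. The fit was tested on simulated data.

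The members and the gene lists were chosen with earlier results of these data known. From each list the text names, per comparison, the genes past the threshold or else the one with the smallest p, and per cathepsin the 3 most alike probes. Gene symbols come from the files and a RefSeq table of the ARS-UCD2.0 assembly (for names alone), which matched 20595 probes by accession and 10745 by symbol. Slide and scan marked the same arrays. Deviations from the group means correlated at r = 0.49 to 0.57 in the 4 same-numbered pairs of senktide samples, which also shared a slide. Different numbers also gave 0.49 and 0.54 within slide 3, and 0.42 and 0.41 between slides 1 and 2. Between slide 3 and the other slides r was −0.53 to −0.47. The rule of every r above 0.1 therefore cannot show that the numbers pair the samples. Python 3.11.15, pandas 2.3.3, numpy 2.4.6 and matplotlib 3.10.9 were used. Alternatives changed the scaling, the normalization, the filter, the probe summary, the blocks and the arrays used.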

Additional observations from a re-analysis of the deposited data

How the results depend on the processing

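Under the 20 alternative settings no cathepsin difference passed the threshold, the smallest adjusted p being 0.327. Both filters leave the differences as they are by construction, as does leaving out an array of a group not compared. Of 360 alternative values, 59 changed sign against the main setting and 301 kept it, including those unchanged by construction. The values that follow in this paragraph are those that changed sign. With the 75th percentile of all probes, and likewise in the authors' deposited matrix (added after seeing the data), which uses that same scaling and so is no further evidence, 300 nmol/min minus vehicle turned to 0.98 for CTSB, 0.86 for CTSH, 1.16 for CTSL2 and 1.11 for CTSZ, and 30 nmol/min minus vehicle to 0.96 for CTSB, 0.95 for CTSH and 0.94 for CTSL2, while CTSB between the doses became 0.012 and 0.011. Quantile normalization gave 0.19 for CTSZ at 300 nmol/min. Adding normexp gave −0.081 for CTSD and 0.028 for CTSZ at 300 nmol/min, and 0.015 for CTSB, −0.091 for CTSD and 0.013 for CTSH at 30 nmol/min. Averaging a gene's probes gave −0.048 (300 nmol/min), −0.046 (30 nmol/min) and −0.0025 (between the doses) for CTSD. Blocking on slide and the replicate block each gave 0.20 for CTSZ at 300 nmol/min and −0.094 for CTSA and 0.056 for CTSB at 30 nmol/min. Slides 1 and 2 alone gave −0.056 for CTSA, 0.048 for CTSB, 0.0097 for CTSL2 and 0.11 for CTSZ at 300 nmol/min against vehicle, and −0.11 for CTSA and 0.086 for CTSB between the doses.

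Leaving out 1 array at a time gave, at 300 nmol/min against vehicle, −0.062 to 0.14 for CTSD, −0.14 to 0.12 for CTSL2 and −0.19 to 0.024 for CTSZ. It gave 0.067 to 0.33 for CTSA, −0.33 to −0.058 for CTSB and −0.45 to −0.16 for CTSH, which kept their sign. At 30 nmol/min against vehicle it gave −0.11 to 0.15 for CTSA, −0.23 to 0.045 for CTSB, −0.080 to 0.089 for CTSD, −0.25 to 0.035 for CTSH, −0.25 to 0.0066 for CTSL2 and −0.12 to 0.31 for CTSZ. Between the doses it gave −0.22 to 0.010 for CTSB, −0.066 to 0.14 for CTSD and −0.38 to 0.057 for CTSZ. There it gave 0.048 to 0.30 for CTSA, −0.27 to −0.11 for CTSH and 0.061 to 0.16 for CTSL2, which kept their sign. Where a vehicle array was left out, the lone one was assumed to vary like the other groups.

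Over all tested probes, the count past the threshold at 300 nmol/min against vehicle was 1 in the main setting, 142 with quantile normalization and 107 with normexp. It was 0 with the percentile of all probes, without the filter, over probes well above background everywhere, with either block, on slides 1 and 2 and in the deposited matrix, and 0 to 50 with 1 array left out. At 30 nmol/min it was 0, against 107 with quantile normalization, 36 with normexp and 0 to 36 with 1 array left out. Between the doses it was 0, against 1 with normexp and 1 under the replicate block, which changed no call of a cathepsin. Low signal limits CTSC, CTSK and CTSS, for which no difference could be measured.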
